A study of Mus musculus with 6 samples.

Results

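The somite lineage factors examined here were 7 genes for transcription factors that mark or specify the derivatives of the somites, namely Pax1, Pax3, Pax9, Foxc1, Foxc2, Foxd1 and Myf5. They were taken by name from the array, and each was read by 1 probe set whose only gene symbol was that of the factor, so that 7 of 15153 measured genes were described. The RNA came from presomitic mesoderm, the strip of tissue beside the embryonic axis that has yet to segment, which was microdissected from mouse embryos at embryonic day 9.5 with 17 to 19 somites. The mutant group held 3 pools of embryos with the T-Cre driver and both Taf10 alleles floxed (TCre/+;Taf10flox/flox), and the control group held 3 pools labelled wild type, in which 1 or both Taf10 alleles were floxed (Taf10Flox/+ or Taf10flox/flox) and no Cre was named. All 6 arrays thus came from embryos with at least 1 floxed Taf10 allele, each array read a pool of 3 presomitic mesoderms, and T-Cre is driven by the promoter of the mesodermal gene T, so that the embryo outside its domain keeps Taf10.

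Somites bud off the anterior end of the presomitic mesoderm as epithelial balls and then divide into sclerotome, the source of the axial skeleton, and dermomyotome, the source of trunk muscle and dermis. PAX1 and PAX9 mark the sclerotome, PAX3 the dermomyotome and its muscle progenitors, and MYF5 the start of the myogenic programme. FOXC1 and FOXC2 are forkhead factors of the paraxial mesoderm that are needed together for somites to form. TAF10, whose gene is floxed in these embryos, is a subunit of TFIID, which places RNA polymerase II at core promoters, and of the coactivator SAGA.

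The deposited values were intensities from the RMA procedure on a linear scale and were turned into log2 here. Array medians lay between 307.9 and 317.5. Of 7 measured markers of presomitic mesoderm, 6 lay above the upper quartile of all probe sets on every array, among them Tbx6, Msgn1 and Hes7. The first Taf10 probe set had a log2 change of -0.37 (limma adjusted p = 0.0400) and the second one of 0.11 (limma adjusted p = 0.530), and neither is known here to read the deleted part. Mutant 3 lay farthest from its group mean (root mean square distance 0.176 in log2, with the remaining arrays at 0.0758 to 0.108). Xist, the RNA of the inactive X chromosome, stood at 6.32 in control 3 and at 11.3 to 12.6 on the other arrays, so male and female embryos were unevenly pooled.

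None of the 7 factors passed limma's test across all genes at an adjusted p under 0.05 (0 of 7), where 5.92% of all genes did, 2.96% as higher and 2.96% as lower. At an unadjusted p under 0.05 there were 2 of 7, Pax3 and Myf5, against 22.7% of all genes (11.7% higher and 10.9% lower). The same 2 factors were those whose mutant and control pools did not overlap, as was the case for 32.3% of all genes (17.2% with the mutant higher and 15.1% with it lower), so neither share lies far from the background. Pax3 was lower and Myf5 higher in the mutant pools. The median log2 change of the 7 factors was -0.0076, beside 0.035 for all genes.

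**Figure D1:**
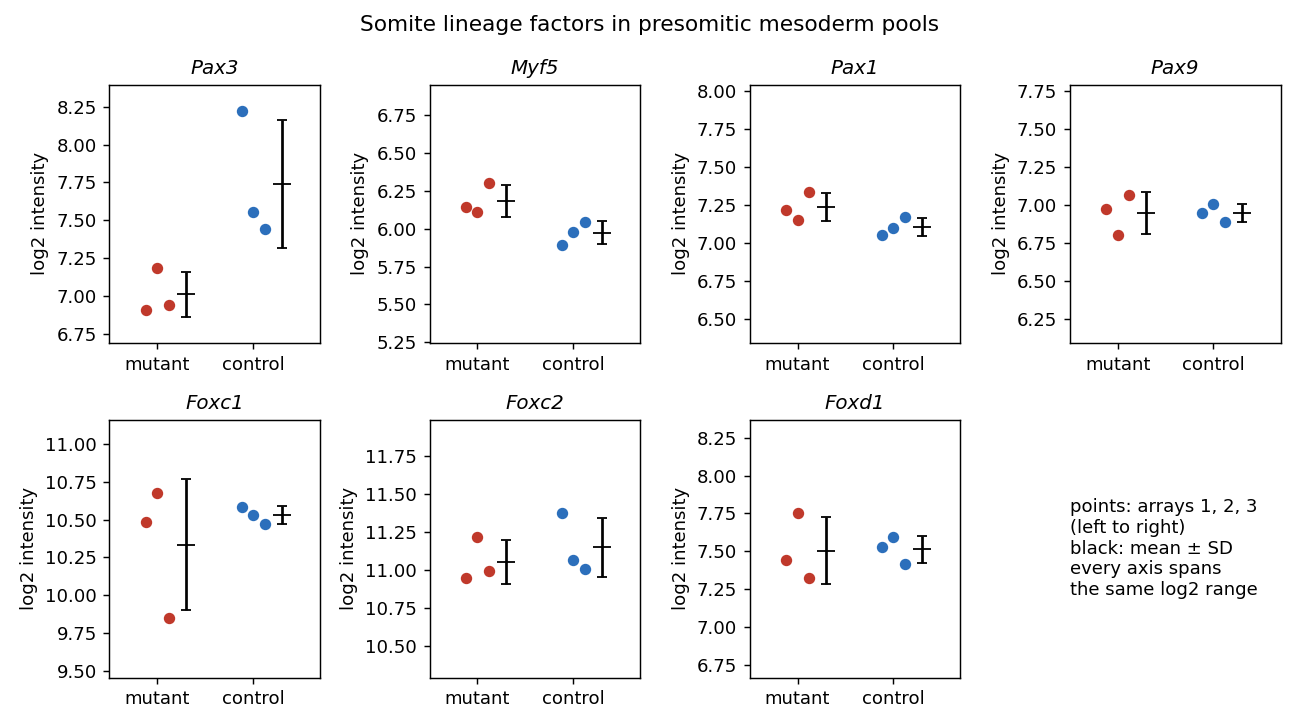
Log2 intensity (y axis) of the 7 somite lineage factors on each of the 3 mutant arrays (red) and the 3 control arrays (blue), with arrays 1 to 3 from left to right in each group; black marks give the mean and SD. The mutant points of Pax3 all lie below the controls and those of Myf5 all above, while the groups overlap for the other factors.

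Pax3, the paired-box factor of dermomyotome and muscle progenitors, which is also made in the dorsal neural tube and the neural crest, had the largest change of the set. Its log2 intensity was 6.91, 7.18 and 6.95 in mutant pools 1, 2 and 3, against 8.22, 7.56 and 7.44 in control pools 1, 2 and 3. On the linear scale these were intensities of 120.0, 145 and 123 in the mutant pools and of 299, 189 and 174 in the control pools. Every mutant pool lay below every control pool, with a gap of 0.26 between the nearest of them, and control 1 lay well above the other controls. The signal was weak, below the array's median on all 6 arrays and below its lower quartile on 2 of them, mutants 1 and 3. How much of it was background is not known, since no detection call came with the values. The means were 7.01 ± 0.15 in mutants and 7.74 ± 0.42 in controls (SD, n = 3 each).

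The log2 change of Pax3 was -0.73 (SE 0.19), or 60.3% of control with a 95% interval of 44.4% to 82.1%. It did not pass over all genes (limma adjusted p = 0.0681). By exact permutation of its 6 values (two-sided) p was 0.1, which no split of 3 and 3 arrays can go below. The spread among control pools was wider than that of 99.7% of genes. Without control 1 the log2 change was -0.49 (limma adjusted p = 0.112, where 41 of 15153 genes passed). The unadjusted limma p of Pax3 was 0.00301 in that fit and 0.00537 with all 6 arrays. Pax3 passed when limma weighted the arrays (log2 -0.55, adjusted p = 0.0168, where 23.8% of all genes passed), which gave mutant 3 the lowest weight. It also passed without control 3 and mutant 3 together (log2 -0.84, limma adjusted p = 0.0358, where 14.0% of all genes passed). In tissue read as a whole, fewer cells of a type and less RNA per cell cannot be told apart.

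Markers of the neural tube and of the neural crest overlapped between the groups in their summed level. The neural tube markers were of the tube as a whole, not of its dorsal part alone. The summed intensity of 11 neural tube markers was 2529 to 2659 in mutant pools and 2375 to 2629 in control pools, and that of 7 of 8 neural crest markers was 717.5 to 837.9 in mutant pools and 739.6 to 761 in control pools. Limma called 0 of 11 neural tube and 0 of 7 neural crest markers, beside 5.92% of all genes, with median log2 changes of 0.031 and 0.084. The mutant pools all lay above the controls for 2 of 11 neural tube markers (Dbx1 and Msx3) and 1 of 7 neural crest markers (Tfap2a). Of all genes 17.2% did so, and the groups overlapped for the other markers of both lists. Of the 7 neural crest markers 2 had a negative log2 change, Ets1 (-0.17) and Sox10, a defining factor of migrating neural crest (-0.031). The others were positive, up to 0.18 for Snai2. The array reports no zero, so an absent marker cannot be told from a weak one. The part of these tissues in the level of Pax3 was not tested.

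Myf5, the first of the myogenic regulatory factors to be switched on in mouse somites, went the other way by a small amount. Its log2 intensity was 6.14, 6.11 and 6.30 in mutant pools, against 5.89, 5.98 and 6.05 in control pools. The mutant pools all lay above the controls, but the gap between the groups was only 0.06, and all 6 values lay below the lower quartile of their array. The log2 change was 0.21 (SE 0.08), or 116% of control with a 95% interval of 102% to 131%, and did not pass over all genes (limma adjusted p = 0.163). Exact permutation of the values (two-sided) gave p = 0.1. No detection call came with the table, so it is not known whether the probe set read Myf5 transcript or background at this level.

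Because Taf10 encodes a subunit of TFIID, the core promoters of the factors were read for a TATA box (the letters TATAAA) and a GC box (GGGCGG), each on both strands, from 250 bases before to 50 after the RefSeq start in build GRCm38.p6. Windows were held for 5 of the 7 factors, all except Pax3 and Foxc2. Myf5 was the single factor with TATAAA, which 13.6% of 32851 such windows contain, and it had no GGGCGG. Pax1, Foxc1 and Foxd1 had 1 GGGCGG each, found in 35.7% of windows, and Pax9 had neither motif. The motifs do not overlap one another in these windows. A match describes the letters and is not evidence of a working site.

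The windows of Myf5 (chr10:107486085-107486384, minus strand) and Foxc1 (chr13:31806396-31806695, plus strand) are printed 5′ to 3′ as an example of each motif, and capitals mark the motif found. The TATAAA of Myf5 begins 20 bases after the annotated start, and the GGGCGG of Foxc1 begins 79 bases before it. G and C make up 49.7% of the Myf5 window and 67.3% of the Foxc1 window, with a median of 52.7% over all windows.
Myf5: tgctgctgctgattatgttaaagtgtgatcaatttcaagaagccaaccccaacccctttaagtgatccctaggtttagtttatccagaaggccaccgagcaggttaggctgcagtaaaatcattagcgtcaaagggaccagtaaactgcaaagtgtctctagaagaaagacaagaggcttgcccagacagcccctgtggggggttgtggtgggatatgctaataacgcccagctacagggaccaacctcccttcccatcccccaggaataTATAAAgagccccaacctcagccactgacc
Foxc1: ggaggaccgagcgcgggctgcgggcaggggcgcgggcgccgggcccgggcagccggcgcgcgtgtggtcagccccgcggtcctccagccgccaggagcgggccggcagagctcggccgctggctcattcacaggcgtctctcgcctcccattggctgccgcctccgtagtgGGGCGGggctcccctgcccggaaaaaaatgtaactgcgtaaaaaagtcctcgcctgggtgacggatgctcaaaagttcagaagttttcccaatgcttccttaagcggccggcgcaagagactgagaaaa

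The sclerotome factors showed little difference between the genotypes. Pax1, a paired-box factor of the ventral sclerotome that responds to Hedgehog signal from the notochord, had log2 intensities of 7.22, 7.15 and 7.33 in mutant pools and of 7.05, 7.10 and 7.17 in control pools. Mutant 2 lay below control 3, so the groups overlapped by a narrow margin. Its change was 0.13 in log2 (SE 0.07), with a 95% interval of 97.2% to 123% of control (limma adjusted p = 0.343), and was 0.078 without mutant 3. Pax9, the closest relative of Pax1, had 6.97, 6.80 and 7.07 in mutant pools and 6.95, 7.01 and 6.89 in control pools, with the controls inside the range of the mutants. It differed by -0.0027 in log2 (SE 0.08, limma adjusted p = 0.987), with a 95% interval of 87.3% to 114% of control. The probe set of Pax1 lay below its array's median on all 6 arrays, and so did that of Pax9.

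The Fox factors of paraxial mesoderm gave strong signal, above the upper quartile of all probe sets on every array for Foxc1 and Foxc2. Foxc1 stood at 10.48, 10.67 and 9.85 in mutant pools and at 10.58, 10.53 and 10.47 in control pools. Mutants 1 and 2 were within or just above the narrow control range, and mutant 3 was well below it. The means were 10.33 ± 0.43 in mutants and 10.53 ± 0.06 in controls (SD, n = 3 each), and the spread among mutants exceeded that of 98.6% of genes. With all arrays its log2 difference was -0.19 (SE 0.19, limma adjusted p = 0.564). It was 0.048 without mutant 3 (limma adjusted p = 0.735), so the direction rested on that array.

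Foxc2, which acts with Foxc1 in the paraxial mesoderm and is also made by endothelium, stood at 10.94, 11.21 and 10.99 in mutant pools and at 11.37, 11.06 and 11.01 in control pools. Control 1 was highest and mutant 2 next, and the groups overlapped. Its log2 difference of -0.10 (SE 0.12, limma adjusted p = 0.640) had an interval of 77.7% to 112% of control, and turned to 0.014 without control 1. Mutant 3, which was lowest for Foxc1, was not lowest for Foxc2.

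Foxd1, known as a factor of renal stroma, stood at 7.44, 7.75 and 7.33 in mutant pools and at 7.53, 7.59 and 7.41 in control pools. The control values lay inside the mutant range. Its log2 difference of -0.0076 (SE 0.11, limma adjusted p = 0.974) had an interval of 83.0% to 119% of control. Its sign turned in 6 of 16 alternatives.

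**Figure D2:**
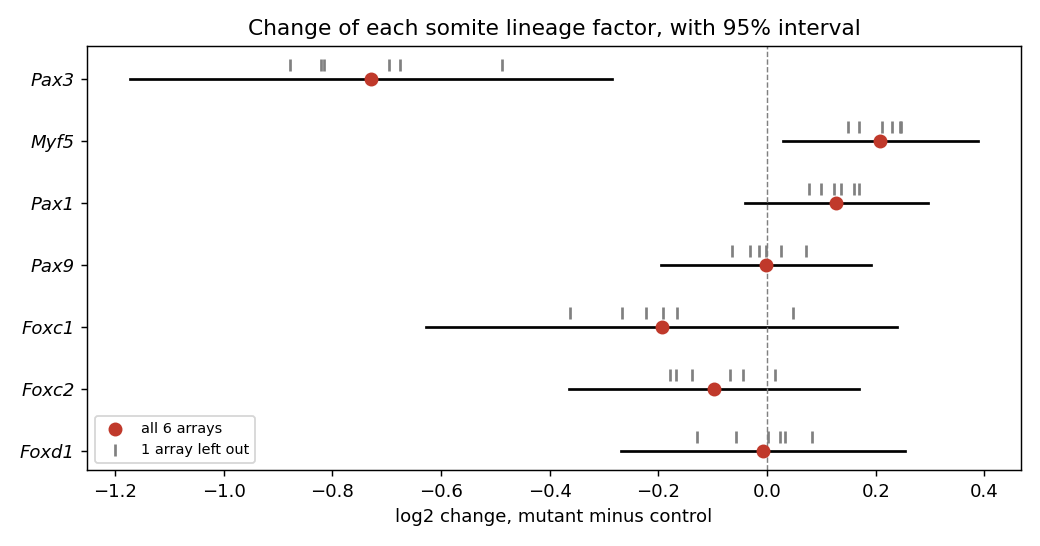
Log2 change, mutant minus control (x axis), of the 7 somite lineage factors (rows): red points use all 6 arrays, black bars are 95% intervals from limma, and grey ticks are the values with 1 array left out. The interval of Pax3 runs from -1.17 to -0.29 and that of Myf5 from 0.029 to 0.39, while the other intervals include 0.

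Pools differed among themselves in ways that touched several factors. Control 1 deviated from the control mean by 0.48 for Pax3 and by 0.22 for Foxc2, and the other controls lay below that mean for both genes. In the mutant group, pool 2 lay above the mean for Pax3 (by 0.17), Foxc1 (by 0.34), Foxc2 (by 0.16) and Foxd1 (by 0.24), and below it for Pax1, Pax9 and Myf5. Endothelial markers, among them Cdh5 and Pecam1 of endothelial junctions, were also highest in control 1 and mutant 2. The summed intensity of the 8 endothelial markers was 911, 1716 and 869.4 in mutant pools 1, 2 and 3 and 2323, 997.1 and 1315 in control pools 1, 2 and 3. None of the 8 passed the test (0 of 8, also 0 at an unadjusted limma p under 0.05), where 5.92% and 22.7% of all genes did. All 8 had a negative log2 change, with a median of -0.24. Their part in the levels of Pax3 and Foxc2 was not tested.

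Of all other genes, 3 had the profile closest to that of Pax3 over the 6 arrays, measured as the root mean square difference after each was centred on its own mean. Pax3 was the single factor whose SD over the arrays exceeded 0.3, the minimum set for this comparison. Adgrf5, an adhesion G protein-coupled receptor, differed from it by 0.075, Itga1, the alpha subunit of a collagen-binding integrin, by 0.147 and Tfpi, the inhibitor of the tissue factor pathway, by 0.157, where the median gene differed by 0.476. Adgrf5 gave log2 intensities of 6.84, 7.24 and 6.80 in mutant pools and of 8.13, 7.52 and 7.49 in control pools. Its log2 change was -0.75 (limma adjusted p = 0.0571), beside -0.66 for Itga1 (limma adjusted p = 0.0643) and -0.67 for Tfpi (limma adjusted p = 0.0416). Without control 1 the differences were 0.078, 0.114 and 0.123, and these genes ranked 18, 111 and 161 in closeness, so their closeness relative to all other genes depended on that pool.

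**Figure D3:**
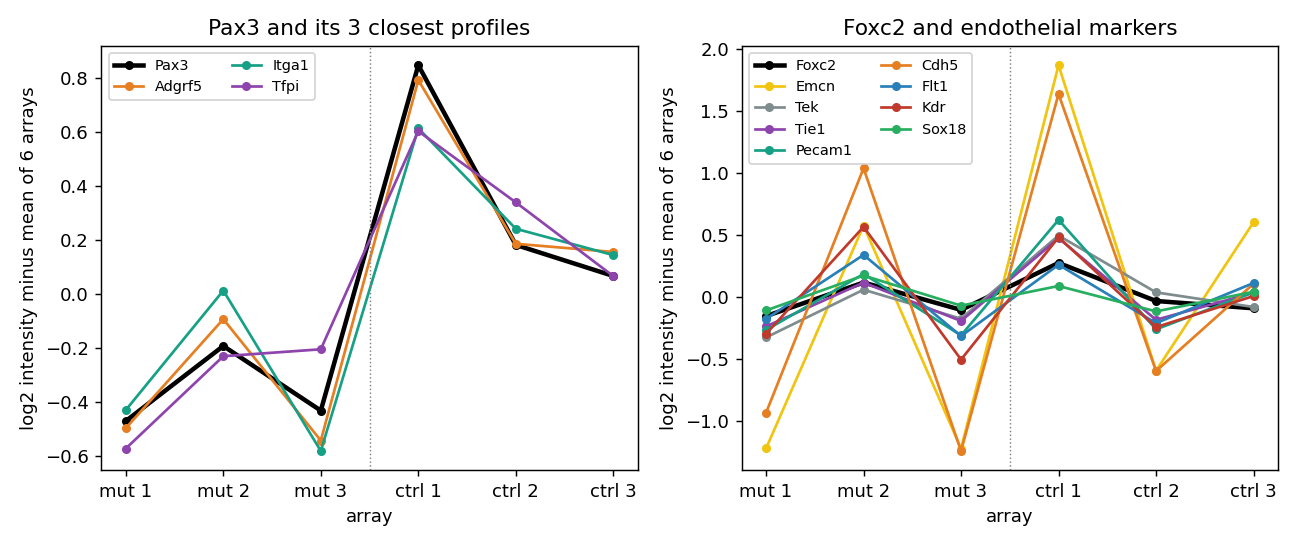
Log2 intensity relative to the 6-array mean (y axis) on each array (x axis, mutant arrays left of the dotted line), for Pax3 with its 3 closest genes (left panel) and for Foxc2 with 8 endothelial markers (right panel). Adgrf5 follows Pax3 to within 0.075 on average, and control 1 and mutant 2 are the highest of their groups for Foxc2 and for the summed endothelial markers.

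Beyond the 7 factors, genes of the same lineages were described from lists of sclerotome, dermomyotome and muscle genes. Of 36 measured, 2 fell and 0 rose, a share near the 5.92% of all genes, and their median log2 change was 0.037 beside 0.035 for all genes. Among 11 sclerotome genes, Prrx1, a homeobox factor of limb and axial mesenchyme, fell to 67.4% of control (log2 -0.57, SE 0.08, limma adjusted p = 0.0126). It gave log2 intensities of 6.38, 6.62 and 6.64 in mutant pools and of 7.14, 7.15 and 7.05 in control pools, with no overlap. Meox2 had a log2 change of -0.33 and Sox9, the master factor of cartilage, of 0.19, and neither passed (limma adjusted p = 0.122 and 0.148).

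None of 13 dermomyotome genes passed, beside 5.92% of all genes. At an unadjusted limma p under 0.05, 1 was higher and 2 were lower, beside 11.7% and 10.9% of all genes. Eya1, a transcriptional coactivator that acts with homeodomain partners upstream of Pax3 in muscle progenitors, came nearest. It stood at 10.07, 10.43 and 10.60 in mutant pools and at 10.99, 10.88 and 10.82 in control pools, with every mutant pool lower. Its mean difference was -0.53 in log2 (SE 0.13, limma adjusted p = 0.0560). With 1 array left out it ran from -0.65 without mutant 3 (limma adjusted p = 0.00855, where 12.8% of all genes passed) to -0.38 without mutant 1 (limma adjusted p = 0.0776). Eya1 passed in no other fit with 1 array left out, with a limma adjusted p of 0.223 without control 1. It passed in 3 of 17 alternatives in all. The other passes were with array weights (limma adjusted p = 0.00273, where 23.8% of all genes passed) and without control 3 and mutant 3 together, where 14.0% of all genes passed. En1 had a log2 change of 0.25 and Met, the receptor that migrating muscle precursors need, of -0.21, and neither passed.

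Of 12 genes of the myogenic programme 1 fell, Actc1, the cardiac actin of early muscle, with 8.95, 9.06 and 9.08 in mutant pools and 9.57, 9.39 and 9.38 in control pools. Its log2 change was -0.41 (SE 0.08, limma adjusted p = 0.0245). Mef2a, a muscle transcription factor also made elsewhere, had a log2 change of 0.21 and did not pass (limma adjusted p = 0.0914). It passed in 4 of 17 alternatives. These were the fits without mutant 3 (0.0478), after quantile (0.0461) or cyclic loess normalization (0.0462) and with array weights. With array weights its limma adjusted p was 0.00493, where 23.8% of all genes passed. The myogenic factors Myod1 (log2 change 0.069), Myog (0.10) and Myf6 (0.056) did not pass. Des, the muscle intermediate filament, had a log2 change of -0.15. Neither Prrx1 (limma adjusted p = 0.0797 and 0.0833) nor Actc1 (0.111 and 0.103) passed without control 1 or without control 2. Actc1 also did not pass without control 3 (0.0636), mutant 1 (0.0716) or mutant 2 (0.0649).

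**Figure D4:**
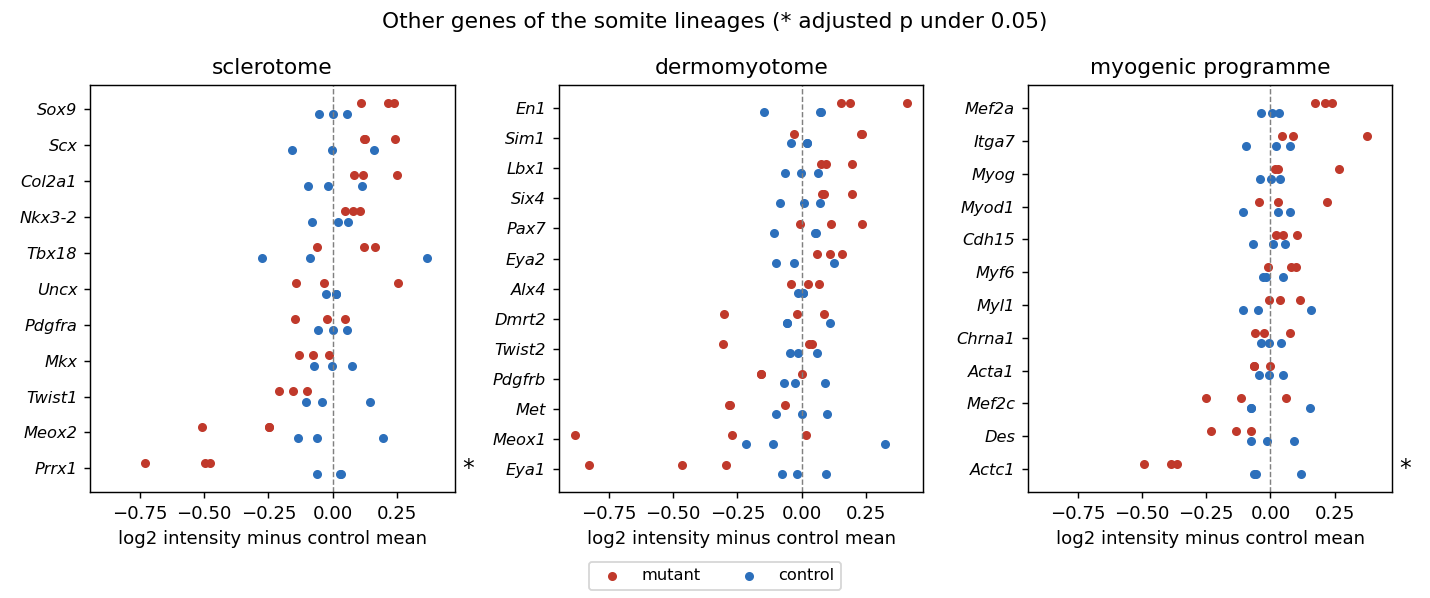
Difference in log2 intensity from the control mean (x axis) for the measured sclerotome, dermomyotome and myogenic genes (rows), on each of the 3 mutant arrays (red, upper row of each gene) and 3 control arrays (blue, lower row). Stars mark Prrx1 and Actc1, which fell at an adjusted p under 0.05; Eya1, with a mean change of -0.53, did not pass.

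The relatives of the factors showed no called change. Of 6 other Pax genes and 12 other Fox genes of classes A to G, 0 of 18 passed in limma, a share near the 5.92% of all genes. At an unadjusted limma p under 0.05 there were also 0, beside 22.7% of all genes. The log2 changes of the 18 ran from -0.074 to 0.16. Pax2, a factor of intermediate mesoderm, had the highest of these at 0.16, Pax7, which overlaps with Pax3 in muscle progenitors, had 0.11 and Pax8 had -0.074. Foxb1, Foxe1 and Foxd4 had log2 changes of 0.12, 0.074 and 0.089. Without mutant 3 the changes were 0.087 for Pax2, 0.054 for Pax7, 0.056 for Foxb1 and 0.041 for Foxd4. Without control 1 they were 0.060 for Pax7, 0.039 for Foxe1 and 0.029 for Foxd4.

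The signals that pattern somites and their target genes likewise gave 0 of 16 calls, a share near the 5.92% of all genes. At an unadjusted limma p under 0.05, 2 were higher and 1 lower, beside 11.7% and 10.9% of all genes. Ptch1, the Hedgehog receptor and a target of the pathway, had log2 intensities of 11.19, 11.23 and 11.23 in mutant pools and of 11.06, 11.07 and 10.96 in control pools. The log2 change was 0.18 for Ptch1 (limma adjusted p = 0.133) and 0.18 for Gli1, a transcription factor that the same pathway induces (limma adjusted p = 0.186). Every mutant pool lay above every control pool for both genes, as for 4 of the 16 in all and for 17.2% of all genes. Bmp4, a ligand from ectoderm and lateral plate, had a log2 change of -0.43 (limma adjusted p = 0.214). With 1 array left out it ran from -0.60 without mutant 3 (limma adjusted p = 0.0433, where 12.8% of all genes passed) to -0.20 without mutant 1 (limma adjusted p = 0.298), and it passed in no leave-out other than that of mutant 3.

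Of 13 genes of the forming somites 1 fell, beside 2.96% of all genes that fell. At an unadjusted limma p under 0.05 there were 4, all of them lower, as were 10.9% of all genes. Cdh11, a cadherin of paraxial mesoderm and mesenchyme, fell to 61.6% of control (log2 -0.70, SE 0.08, limma adjusted p = 0.00643), with 10.28, 10.19 and 10.43 in mutant pools and 11.04, 10.93 and 11.02 in control pools. Without control 1 it just failed to pass (limma adjusted p = 0.0501). The log2 change was -0.31 for Tcf15, the factor that makes somites epithelial, and -0.37 for Epha4, a receptor at somite borders. Neither passed (limma adjusted p = 0.0862 and 0.0826). Epha4 did pass without mutant 3 (log2 -0.26, limma adjusted p = 0.0462, where 12.8% of all genes passed). With array weights both passed (limma adjusted p = 0.0490 for Tcf15 and 0.00341 for Epha4), where 23.8% of all genes passed. The summed intensity of the 13 genes was 12520 to 13840 in mutant pools and 13990 to 15250 in control pools, which did not overlap. Such a sum is led by genes of high intensity, among them Cdh11 and Epha4, which were both lower in every mutant pool. The median deviation of the 13 genes from their control means did overlap, at -0.36, -0.14 and 0.11 in mutant pools 1, 2 and 3. In control pools 1, 2 and 3 it was 0.12, -0.064 and -0.061. The summed intensity of 7 of 8 presomitic markers was 24520 to 26340 in mutant pools and 20920 to 22200 in control pools. Their median deviation from the control means was 0.39, 0.30 and 0.18 in mutant pools 1, 2 and 3. In control pools 1, 2 and 3 it was -0.0087, -0.017 and 0.015. The markers did not all move alike, as 2 of the 7 had a negative log2 change, Rspo3 (-0.74, limma adjusted p = 0.0127) and Fgf8 (-0.21). The part of a shift between presomitic and somite tissue in the level of Pax3 was not tested.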

How the data were processed

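The authors deposited 1 table of intensity values for 18064 probe sets on 6 arrays, which came from RMA per the submitters' processing notes. The version of RMA, the chip description used and whether probe sets were filtered could not be learned from the labels. Each array received biotinylated single-strand cDNA made from 150 ng of RNA, per the labels' protocols. The logarithm to base 2 was taken, and nothing else was normalized. Of the probe sets, 16311 carried 1 gene symbol, 734 several and 1019 none, and 15153 genes were represented by their probe set with the highest mean. Limma 3.58.1 in R 4.3.3 (lmFit, eBayes) compared mutant with control pools over the 16311 probe sets, with Benjamini-Hochberg adjustment and a threshold of 0.05, and the method was tested on simulated data. Changes are mutant minus control, and intervals are limma's 95% intervals. Single values were tested by exact permutation in SciPy 1.17.1. The number of arrays limits the precision, and the labels call the pools biological replicates, so the tests rest on the variation from pool to pool.

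The factors and the lists were chosen with earlier results of these data known. By the rule, the text names the 7 factors, every called gene and the 3 with the smallest p in each list of lineage, family, signal and forming somite genes, and the 3 profiles closest to any factor with an SD over 0.3. Other genes named, such as Myod1, Sox10 or Cdh5, were chosen after their values were seen. No gene list was tested as a set. Alternatives were a replicate block, quantile and cyclic loess normalization, median centring, a filter at the 40th percentile of level, all probe sets, trended and robust eBayes, array weights, the lowest probe set per gene, each array left out, and control 3 and mutant 3 left out together. Promoter windows are from RefSeq, build GRCm38.p6. Some listed genes were not analysed here.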

Additional observations from a re-analysis of the deposited data

How the results depend on the processing

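Of the values of the 7 factors under 17 alternatives, 99 kept the direction and the side of the threshold, 2 passed (both of Pax3) and 13 changed sign. The count of factors that passed was 0 with each array left out in turn, 1 with array weights and 1 without control 3 and mutant 3 together. All genes that passed numbered 897, against 3608 with array weights, 2125 without control 3 and mutant 3 together, and 41 (without control 1) to 1945 (without mutant 3) with 1 array left out. Of 36 other lineage genes 2 passed (0 higher), against 3 after quantile and 3 after cyclic loess normalization (1 higher in each, Mef2a), 1 of the 14 left by the filter on level, 6 with array weights, 4 without control 3 and mutant 3 together, and 0 to 4 with 1 array left out. The log2 change of Pax3 ran from -0.88 to -0.49 and that of Myf5 from 0.14 to 0.25. Signs changed with array weights for Foxc1 (0.0896), Foxc2 (0.0363) and Foxd1 (0.14), and without control 3 and mutant 3 together for Foxc1 (0.0187) and Foxd1 (0.0332). With 1 array left out they changed for Foxc1 (-0.364 to 0.0484, above 0 without mutant 3), Foxc2 (-0.18 to 0.0145, above 0 without control 1), Pax9 (-0.064 to 0.0707, above 0 without control 2 or mutant 2) and Foxd1 (-0.13 to 0.0826, above 0 without control 1, control 2, mutant 1 or mutant 3). The cause was not tested.

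Same-numbered pools are not stated to share a source, and their deviations from the group means correlated at 0.12, 0.054 and 0.29 across genes, with 2 of 6 arrays closest to their own number. With the replicate number as a block, 0 factors, 2 other lineage genes and 1084 genes passed, and Pax3 kept an adjusted p of 0.0649 in limma. The filter on level removed Pax1, Pax3, Pax9, Foxd1 and Myf5, so it gave no value for them.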

Other observations

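Markers of the other tissues near the presomitic mesoderm gave few calls, where 5.92% of all genes were called. At an unadjusted limma p under 0.05 the share of all genes was 22.7%, with 11.7% higher and 10.9% lower. Of 6 intermediate mesoderm genes 1 rose, Lhx1, a homeobox factor of the nephric lineage, with 8.43, 8.57 and 8.55 in mutant pools and 7.41, 7.48 and 7.50 in control pools (log2 1.05, limma adjusted p = 0.00158). Limma called 0 of 7 lateral plate, 0 of 5 notochord and 0 of 8 endoderm and surface ectoderm markers, of which 0, 0 and 1 had an unadjusted p under 0.05. It also called 0 of 6 blood markers, again with 0 at an unadjusted p under 0.05, and their summed intensity was 4093 to 16720 in mutant pools and 9374 to 22580 in control pools. Of 11 neural tube markers 0 were called and 2 were higher at an unadjusted limma p under 0.05, and of 7 neural crest markers 0 were called, with 0 at that level. Of 7 presomitic markers 3 were called, beside 5.92% of all genes: Tbx6 (log2 0.63) and Hes7 (log2 0.52) rose and Rspo3 fell (log2 -0.74). At an unadjusted limma p under 0.05, 5 were higher and 1 was lower, beside 11.7% and 10.9% of all genes.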
